A study of Mus musculus with 78 samples.

Results

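Cholesterol synthesis and the genes driven by SREBP2 were described here in mouse kidney. The 28 genes were taken by symbol from a list of pathway genes, out of 24499 genes in the count files, and all 28 were found. They comprise 8 enzymes that lead from acetyl-CoA through mevalonate to isoprenoids (Acat2, Hmgcs1, Mvk, Pmvk, Mvd, Idi1, Fdps, Ggps1), 3 that make lanosterol by way of squalene (Fdft1, Sqle, Lss) and 8 that turn lanosterol into cholesterol (Cyp51, Tm7sf2, Msmo1, Nsdhl, Hsd17b7, Ebp, Sc5d, Dhcr7). The other 9 are 4 genes of SREBP2 and its control (Srebf2, Scap, Insig1, Insig2) and 5 of cholesterol uptake and transport (Stard4, Npc1, Npc2, Npc1l1, Mylip). A filter on low counts left 27 for testing. Npc1l1, the intestinal cholesterol importer, did not pass it, with group means of 0.12 to 0.318 CPM.

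SREBP2, encoded by Srebf2, is a membrane-bound transcription factor of the endoplasmic reticulum. When sterols are scarce, its escort SCAP carries it to the Golgi, where it is cut and released to the nucleus to raise genes of cholesterol synthesis and uptake. When sterols are plentiful, the INSIG proteins hold SCAP in the endoplasmic reticulum, and Insig1 is itself a target of SREBP2, so its messenger RNA is a familiar readout of the pathway. Kidney tubule cells make cholesterol and also take it up from lipoproteins.

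The mice of all 72 libraries used were male C57BL/6J, an inbred strain, and had eaten 1 of 3 diets for 8 weeks. These were low fat at 4% fat (LFD), high fat at 31% fat (HFD), and a diet lacking methionine, choline and folate (MCD). No fat content is given here for MCD. All mice were dosed with tetrachloroethylene (PERC), a dry-cleaning and degreasing solvent, at 300 mg/kg per day, or with its vehicle alone. The vehicle was 5% Alkamuls-EL620 in saline at 5 mL/kg. After a single PERC dose, mice were killed at 24 h, and after 5 daily doses of PERC or vehicle at 4 h after the last. For vehicle mice of the single regimen the sources used here give no time of death, and unequal times may therefore be compared. PERC and vehicle libraries numbered 4 and 5 (LFD), 5 and 4 (HFD) and 4 and 3 (MCD) in the single regimen, and 9 and 7 (LFD), 8 and 8 (HFD) and 8 and 7 (MCD) in the repeated regimen. The series text states 8 per diet and treatment in the repeated regimen, where the labels give 9 and 7 on LFD, and the labels were used as given. By its title, the study concerns protection of the kidney from PERC in fatty liver as opposed to steatohepatitis.

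The 72 libraries of whole pulverized kidney came from lanes 1 to 3 (single regimen, 25 libraries with 9047579 to 42022166 counts in genes) and from lanes 4 to 8 (repeated regimen, 47 libraries with 8556278 to 28508827). The labels do not say that libraries came from separate animals, and each p-value therefore rests on library-to-library spread, which may be technical. Replicate numbers follow accession order and only name a library. Levels are counts in a library scaled to 1000000 counts in genes (CPM), scaled by TMM factors, and a fold change is the log2 ratio of group means fitted by edgeR. A gene rose or fell only where edgeR's quasi-likelihood test gave a Benjamini-Hochberg adjusted p under 0.05 over all genes tested. Proximal tubule markers summed to 6333 to 13163 CPM per library. Adrenal cortex markers summed to 5.18 to 11.8 CPM, and 5 to 7 of the 9 listed had counts in each group. Cyp11b1 was at 0 in all 12 groups, while Cyp21a1, Cyp11b2 and Nr5a1 had counts in some groups and none in others. In whole tissue, fewer cells of a type and less RNA per cell cannot be told apart.

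One library labelled PERC had vehicle levels of 2 genes that were high in the others of its group. Cyp4a14, a fatty acid hydroxylase, stood at 120.8 CPM in the library labelled LFD PERC replicate 4 of the repeated regimen, within the LFD vehicle range of 56.5 to 182.1 CPM, while the other LFD PERC libraries had 892 to 7369 CPM. Havcr1, an injury marker of the proximal tubule, was at 1.82 CPM there, against 1.78 to 2.62 CPM with vehicle and 13.7 to 198.7 CPM in the other LFD PERC libraries. Both genes were chosen from earlier results of these data. Havcr1 was also low, at 1.71 CPM, in MCD PERC replicate 6 of the repeated regimen, whose Cyp4a14 was 7930 CPM. In LFD PERC replicate 4, Insig1 (68.2 CPM), Fdps (27.2 CPM) and Lss (35.9 CPM) lay above every LFD vehicle library. The other members that rose on LFD, named below, lay within the vehicle range in that library. Whether that library is mislabelled was not tested, and it was kept in its labelled group. Without it, 8 members rose on LFD after 5 doses, and over the diets 9 rose and 2 fell. Here and below, member counts from refits are given without the share of all genes called in that refit, and only describe it.

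SREBP2 binds sterol regulatory elements next to the factors NF-Y and Sp1. RefSeq windows (GRCm38.p6) from 250 bases before to 50 after a transcript start were matched for 23 of the 28 genes, in 29 windows. Fdps, Fdft1, Sqle, Stard4 and Npc1 had no window and were not searched. A classical sterol element, TCACNCCAC, NF-Y's CCAAT and Sp1's GGGCGG were searched on both strands, and none of these motifs overlapped another in the windows printed. The windows of 5 genes are printed: that of Hmgcs1, the only one with the sterol element, those of Lss, Msmo1 and Insig1, which rose with PERC, and that of Ebp, which differed with diet. Capitals mark the motifs, and ATTGG and CCGCCC are CCAAT and GGGCGG on the other strand.
Hmgcs1 (chr13:119690101-119690400, plus strand): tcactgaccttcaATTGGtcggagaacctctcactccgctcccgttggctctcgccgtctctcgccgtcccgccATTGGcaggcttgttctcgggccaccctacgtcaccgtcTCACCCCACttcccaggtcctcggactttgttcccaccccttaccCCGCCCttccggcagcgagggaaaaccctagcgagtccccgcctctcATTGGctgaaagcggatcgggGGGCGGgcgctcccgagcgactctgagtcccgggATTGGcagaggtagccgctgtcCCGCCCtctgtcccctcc
Lss (chr10:76531355-76531654, plus strand): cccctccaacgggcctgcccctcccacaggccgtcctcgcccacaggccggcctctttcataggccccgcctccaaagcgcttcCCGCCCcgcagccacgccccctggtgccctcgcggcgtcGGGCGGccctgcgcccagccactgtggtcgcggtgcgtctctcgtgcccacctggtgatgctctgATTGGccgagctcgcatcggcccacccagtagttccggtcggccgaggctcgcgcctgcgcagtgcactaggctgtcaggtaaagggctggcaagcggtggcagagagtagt
Msmo1 (chr8:64733529-64733828, minus strand): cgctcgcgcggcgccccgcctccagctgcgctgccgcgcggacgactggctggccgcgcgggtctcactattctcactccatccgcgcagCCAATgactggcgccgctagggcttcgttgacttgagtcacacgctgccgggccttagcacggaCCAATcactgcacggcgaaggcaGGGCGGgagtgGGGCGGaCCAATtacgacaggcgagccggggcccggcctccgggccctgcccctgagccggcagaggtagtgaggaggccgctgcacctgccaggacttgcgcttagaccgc
Insig1 (chr5:28071162-28071461, plus strand): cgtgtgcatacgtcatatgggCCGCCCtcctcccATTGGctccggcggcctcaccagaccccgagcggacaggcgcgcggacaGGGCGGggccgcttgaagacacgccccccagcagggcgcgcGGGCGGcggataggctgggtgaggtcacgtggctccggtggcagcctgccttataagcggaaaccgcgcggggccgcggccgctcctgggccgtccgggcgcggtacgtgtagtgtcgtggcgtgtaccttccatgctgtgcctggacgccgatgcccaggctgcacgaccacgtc
Ebp (chrX:8193463-8193762, minus strand): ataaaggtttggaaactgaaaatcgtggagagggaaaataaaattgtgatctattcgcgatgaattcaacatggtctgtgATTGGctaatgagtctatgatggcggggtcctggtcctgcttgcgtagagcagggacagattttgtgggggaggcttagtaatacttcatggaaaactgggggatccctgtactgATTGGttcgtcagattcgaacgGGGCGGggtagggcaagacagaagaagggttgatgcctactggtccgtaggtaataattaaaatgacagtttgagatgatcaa

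The sterol element was found in 1 of 29 windows, against 1.24% of all 32851 windows in the table. CCAAT was found in 21 of 29, against 37.4% of all windows, and GGGCGG in 23 of 29, against 35.7%. The element in Hmgcs1 lies upstream of the start, on the plus strand. A match is a run of letters, not a measured binding site, and these windows hold no binding data. Lss, Msmo1, Insig1 and Ebp carried CCAAT, as did most of the other members.

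In LFD vehicle kidney of the repeated regimen, levels per kb of merged exon set the members in order. Hmgcs1, the synthase that makes HMG-CoA, was first at 160 CPM per kb, ahead of Cyp51, the lanosterol demethylase, at 62.3 and Idi1, the isopentenyl diphosphate isomerase, at 48.7. Lss, the lanosterol synthase, was among the lowest enzymes at 3.07 and Mvk, mevalonate kinase, stood at 3.41. This order depends on the length used. Merged exons span 10787 bases in Lss and 2675 in Mvk, while their longest transcripts have 4667 and 1660. Insig1 had 16.7, Insig2 19, Srebf2 9.26 and Scap 9.14 CPM per kb. Npc1l1 was last at 0.0602.

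After 5 daily doses, PERC raised a run of enzymes centred on farnesyl diphosphate and squalene, together with Insig1, and left the messenger RNA of SREBP2 and its escort without a called change. Averaged over the 3 diets, 9 of 27 members rose and 1 fell, against 24.5% of all 14614 genes called (12.8% higher, 11.7% lower). The median log2 fold change of the 27 was 0.07, and that of all genes 0.00. All 3 enzymes from squalene synthase to lanosterol synthase rose (median 0.37). Of the 8 mevalonate and isoprenoid enzymes 2 rose (median 0.08), of the 8 late enzymes 2 rose and 1 fell (median 0.05), of the 4 regulators 1 rose (median -0.01), and of the 4 transport genes tested 1 rose (median 0.12). By diet, LFD had 8 members that rose, where 6.91% of all genes were called (4.48% higher, 2.43% lower). HFD had 5, where 9.18% were called (4.97% higher, 4.22% lower). MCD had 3, where 5.1% were called (2.72% higher, 2.38% lower). None of the 27 fell on any of the diets taken alone. On LFD 20 of 27 log2 fold changes were above 0, on HFD 17 and on MCD 18, against 50.1%, 51.2% and 51.7% of all genes.

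**Figure D1:**
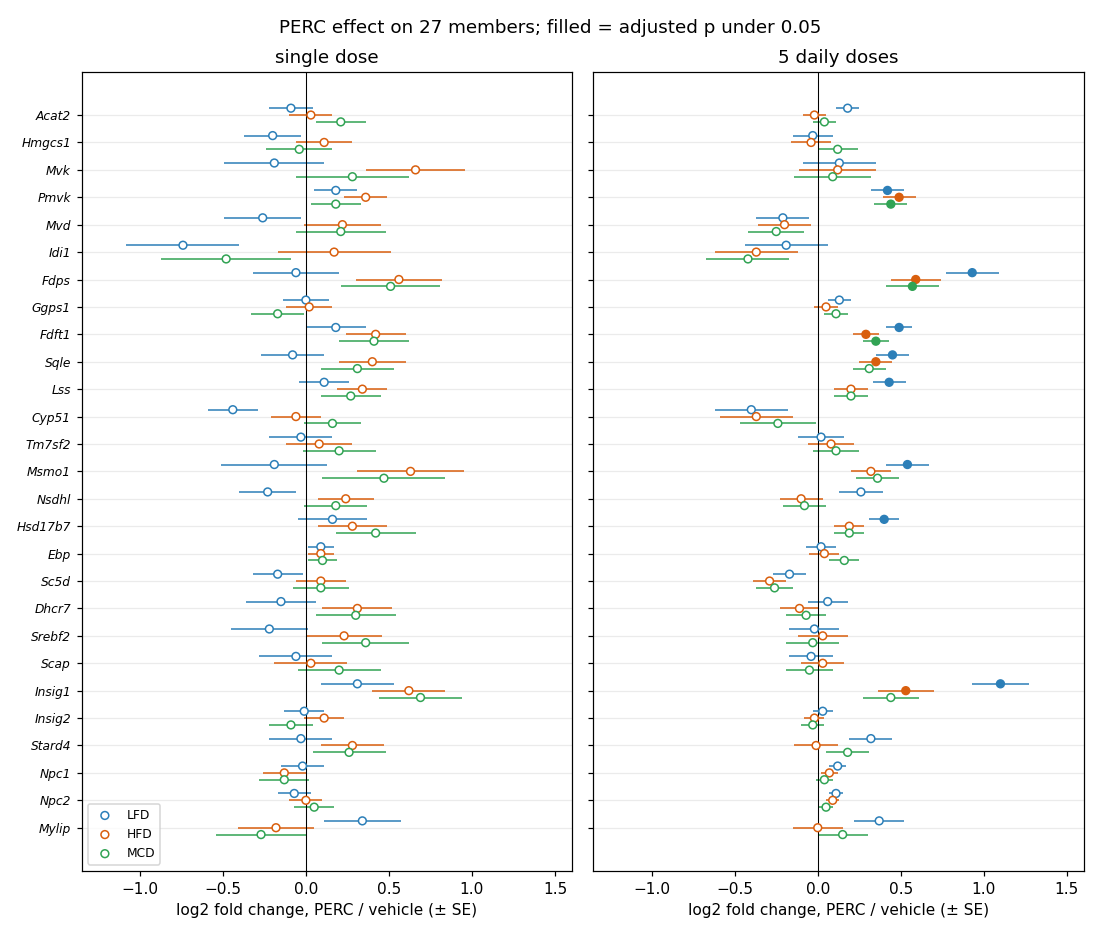
Log2 fold change of each member, PERC against vehicle, with its standard error, by diet in each regimen (filled points passed the adjusted p). In the repeated regimen Insig1 and Fdps stand farthest to the right on LFD, at 1.10 and 0.93, while Srebf2 and Scap sit at 0.

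Insig1, the feedback gene (chromosome 5, 28071363 to 28078662, plus strand, GRCm38), showed the widest difference on LFD. With vehicle the LFD libraries had a lowest, median and highest level of 39.4, 50.7 and 64.8 CPM (mean 51.5 ± 10.1, SD, n = 7), and with 5 doses of PERC 61.9, 111 and 162 CPM (110 ± 36.7, n = 9). The groups overlapped only at their edges, where the lowest PERC library, replicate 3, fell below the highest vehicle library. Insig1 rose 2.14-fold on LFD (log2 fold change 1.10, SE 0.17, edgeR adjusted p = 4.91e-05). On HFD its level was 66.6, 79.3 and 92.4 CPM with vehicle and 59.9, 116.9 and 129.4 CPM with PERC, a rise of 1.44-fold (log2 0.53, SE 0.17, edgeR adjusted p = 0.0381). One PERC library on HFD, replicate 6 at 59.9 CPM, lay below every HFD vehicle library, and the next lowest PERC library stood at 108 CPM. The HFD call was lost without any 1 of PERC replicates 2, 3, 4 and 7 or vehicle replicates 2, 3, 4, 5 and 7 (adjusted p up to 0.0722), and with adipocyte or adrenal markers as a covariate (adjusted p = 0.0574 and 0.068). On MCD it was 69.1, 76.4 and 112 CPM with vehicle and 76.3, 96.8 and 183 CPM with PERC, which did not pass (log2 0.44, SE 0.17, edgeR adjusted p = 0.151). The PERC libraries of the 3 diets covered overlapping ranges, while the LFD vehicle libraries all lay below those of the other diets. Over the diets the log2 fold change was 0.69 (SE 0.10, edgeR adjusted p = 7.16e-07), and it was above 0 in each of 5 lanes (0.45 to 1.06).

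Fdps, farnesyl diphosphate synthase (chromosome 3, 89093588 to 89101959, minus strand), stands at the branch where sterols part from the prenyl groups that anchor proteins to membranes. On LFD its level was 16.3, 22.3 and 24.6 CPM with vehicle (mean 21.2 ± 2.95, SD, n = 7) and 27.2, 35.7 and 56.8 CPM with PERC (40.3 ± 10.3, n = 9). The groups did not overlap, as was the case for 0.301% of all genes. It rose 1.9-fold (log2 0.93, SE 0.16, edgeR adjusted p = 1.01e-04). On HFD it went from 16.8, 19.2 and 22 to 19.1, 28.8 and 40.3 CPM (log2 0.59, SE 0.15, edgeR adjusted p = 0.00859), and on MCD from 15.2, 19.8 and 25.8 to 18.5, 28.9 and 45.6 CPM (log2 0.57, SE 0.16, edgeR adjusted p = 0.0255). On both of these diets the PERC libraries began within the vehicle range and reached above it. The MCD call was lost without PERC replicate 5 or vehicle replicate 5 or 7 (adjusted p up to 0.0778). The annotated genes Gm22935 and Gm43738 overlap Fdps on its strand, which leaves its counts uncertain to that extent. Within lanes the Fdps difference ran from 0.37 to 0.97, above 0 in 5 of 5.

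Fdft1, squalene synthase, is the first enzyme committed to sterols (chromosome 14, 63145150 to 63179578, minus strand, overlapping Ctsb on the other strand). Its level on LFD was 29.9, 38.4 and 40.9 CPM with vehicle and 40.1, 51.2 and 61.1 CPM with PERC, a rise of 1.41-fold (log2 0.49, SE 0.08, edgeR adjusted p = 5.61e-05). On HFD it went from 29.9, 32.5 and 36 to 36.9, 39.2 and 43.4 CPM (log2 0.29, SE 0.08, edgeR adjusted p = 0.0133). On MCD it went from 30.1, 32.2 and 36.7 to 38.3, 40.5 and 54.8 CPM (log2 0.35, SE 0.08, edgeR adjusted p = 0.00482). The HFD and MCD groups were fully apart and the LFD groups overlapped slightly. Of all genes, 2.07% were apart on HFD and 1.63% on MCD. The HFD call was lost with adrenal markers as a covariate (log2 0.27, adjusted p = 0.063).

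Sqle and Lss carry squalene on to lanosterol. Sqle, squalene epoxidase (chromosome 15, 59315077 to 59331192, plus strand), stood on LFD at 98, 104.5 and 128.9 CPM with vehicle and at 111, 154 and 170 CPM with PERC. It rose on LFD (log2 0.45, SE 0.10, edgeR adjusted p = 0.00244) and on HFD, from 88, 98.8 and 123 to 103.4, 127.6 and 161.1 CPM (log2 0.35, SE 0.10, adjusted p = 0.014). On MCD, 83.4, 93.3 and 112 CPM against 93.6, 116 and 153 CPM gave 0.31 on the log2 scale (SE 0.10, edgeR adjusted p = 0.0611). In each diet the PERC median lay above the highest vehicle library, and the groups overlapped. Lss (chromosome 10, 76531588 to 76557138, plus strand), went from 29.3, 33.3 and 35.4 to 33.6, 43.4 and 59.1 CPM on LFD (log2 0.43, SE 0.10, edgeR adjusted p = 0.00322). Its log2 values on HFD and MCD, both 0.20, did not pass. Over the diets Sqle stood at 0.37 (SE 0.06, edgeR adjusted p = 1.90e-06) and Lss at 0.28 (SE 0.06, adjusted p = 1.56e-04).

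Pmvk, phosphomevalonate kinase (chromosome 3, 89454541 to 89469013, plus strand), rose by a like amount on every diet. On LFD it went from 11.7, 13.2 and 13.8 to 12.2, 18 and 21.1 CPM (log2 0.42, SE 0.10, edgeR adjusted p = 0.00551). On HFD it went from 8.18, 11.5 and 14.3 to 14.3, 15.8 and 19.4 CPM (log2 0.49, SE 0.10, edgeR adjusted p = 6.59e-04), and on MCD from 11.8, 12.5 and 15 to 13.9, 17.6 and 21.1 CPM (log2 0.44, SE 0.10, adjusted p = 0.00459). The HFD groups were apart by less than the last digit printed, and the others overlapped. The LFD call was lost with adrenal markers as a covariate (log2 0.32, adjusted p = 0.118). Its neighbours in the pathway were not called over the diets: the log2 value was 0.12 for Mvk, -0.22 for Mvd, the decarboxylase, -0.33 for Idi1, 0.09 for Ggps1, which makes geranylgeranyl diphosphate, 0.02 for Hmgcs1 and 0.07 for Acat2, the thiolase at the entry.

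Among the late enzymes, Msmo1 and Hsd17b7 rose and Sc5d fell. Msmo1, which oxidizes the methyl groups of lanosterol's products, went on LFD from 29.9, 44.3 and 52.9 to 50.3, 65.7 and 76 CPM (log2 0.54, SE 0.13, edgeR adjusted p = 0.00479). Hsd17b7, a ketosteroid reductase of the same demethylation, went from 39.5, 43.8 and 49.1 to 40.9, 62.4 and 67.1 CPM (log2 0.40, SE 0.09, edgeR adjusted p = 0.00374). In both genes the PERC median lay above the whole vehicle range, and 1 or more PERC libraries lay inside it. On HFD and MCD neither passed, with log2 values of 0.32 and 0.36 for Msmo1 and 0.19 and 0.19 for Hsd17b7. Over the diets Msmo1 stood at 0.41 (SE 0.07, edgeR adjusted p = 2.61e-05) and Hsd17b7 at 0.26 (SE 0.05, adjusted p = 1.33e-04). Sc5d, the sterol desaturase near the end of the pathway, fell over the diets (log2 -0.24, SE 0.06, edgeR adjusted p = 0.00184) and passed in none of the diets taken alone. Its lowest, median and highest level was 61.9, 70.1 and 86.6 CPM with vehicle and 41.1, 59.6 and 67.4 CPM with PERC on HFD, and its difference was below 0 in 5 of 5 lanes (-0.35 to -0.11).

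Cyp51 and Idi1 were not among the called genes. Cyp51, the lanosterol demethylase (chromosome 5, 4081145 to 4104746, minus strand, with Akap9 on the other strand), stood at log2 -0.34 over the diets (SE 0.13, edgeR adjusted p = 0.0518). On HFD it went from 410, 433 and 538 CPM with vehicle to 66.9, 395 and 476 with PERC, and on MCD from 331.1, 364.5 and 492.9 to 147.9, 322.2 and 566.3 CPM. On LFD it went from 232.9, 284.6 and 310.1 to 115.5, 212.4 and 298.4 CPM. The coefficient of variation of Cyp51 over libraries was 0.107 with vehicle and 0.28 with PERC on LFD, against 0.0926 and 0.377 (HFD) and 0.142 and 0.411 (MCD). Without HFD PERC replicate 6, at 66.9 CPM, the HFD coefficient with PERC was 0.186. Idi1 had coefficients of 0.189 and 0.335, 0.214 and 0.471, and 0.231 and 0.474 on the same diets, and 0.39 on HFD with PERC without that library. The spread itself was not tested. Within lanes Cyp51 was below 0 in 5 of 5 (-1.09 to -0.04) and Idi1 in 4 of 5.

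For these genes 2 PERC libraries were chosen for leaving out after their values were seen. HFD PERC replicate 6 had the lowest Cyp51 (66.9 CPM), Idi1 (52.3 CPM), Nsdhl (62.9 CPM), Insig1 (59.9 CPM) and Fdps (19.1 CPM) of its group, yet the highest Pmvk (19.4 CPM). The library labelled LFD PERC replicate 4 had the lowest Fdps (27.2 CPM), Fdft1 (40.1 CPM), Hsd17b7 (40.9 CPM) and Sqle (111 CPM) of its group. Without both, 9 members rose on LFD, 6 on HFD and 4 on MCD. Over the diets, 10 then rose and 2 fell: Stard4, a cytosolic sterol carrier, was added above (log2 0.19, SE 0.07, edgeR adjusted p = 0.0488) and Cyp51 below (log2 -0.30, SE 0.10, adjusted p = 0.0247). With lane as a covariate Cyp51 (log2 -0.35, adjusted p = 0.0266), Idi1 (log2 -0.34, adjusted p = 0.0489) and Npc1, the lysosomal cholesterol exporter (log2 0.07, adjusted p = 0.0441), were also called.

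**Figure D2:**
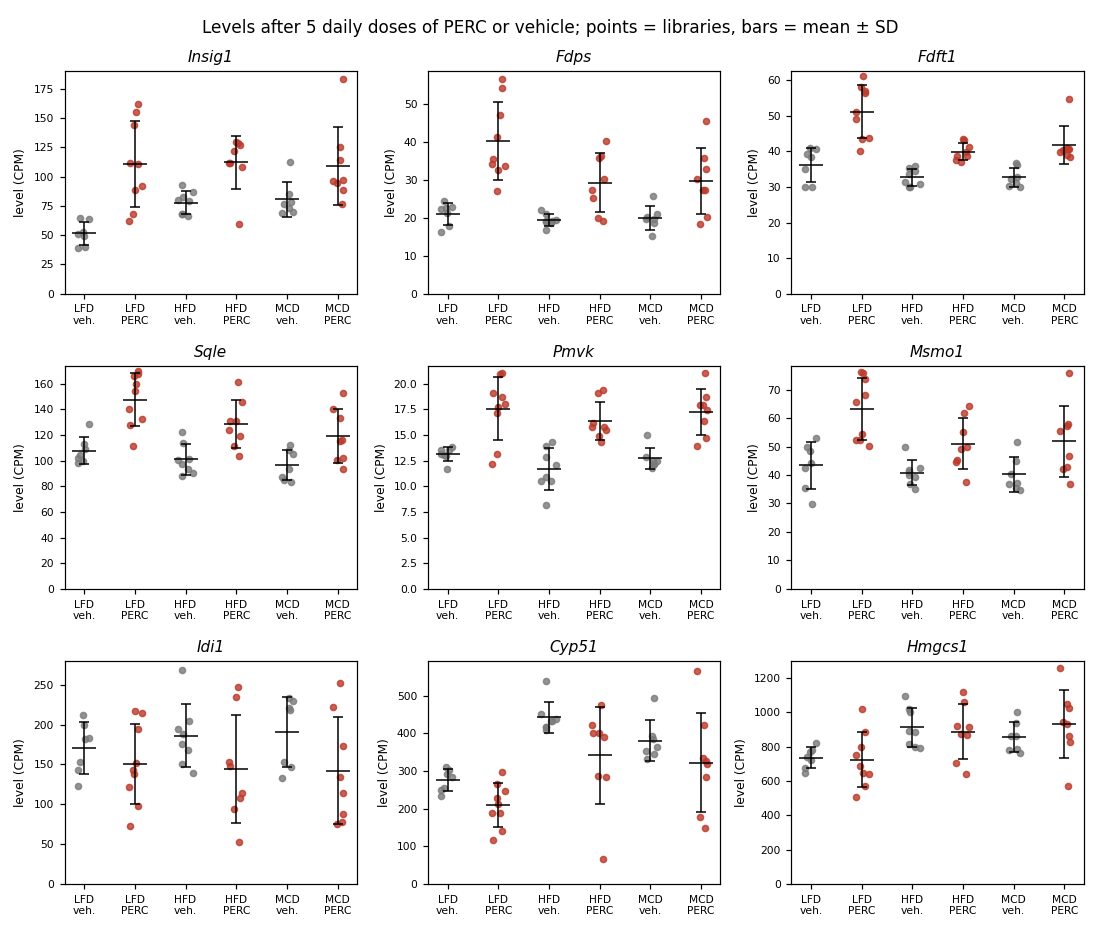
Level (CPM) of members in each repeated-regimen library, by diet and treatment, with group means and SD. Fdps on LFD runs from 16.3 to 24.6 CPM with vehicle and from 27.2 to 56.8 with PERC, and Cyp51 on HFD has 1 PERC library at 66.9 CPM.

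The regulators other than Insig1 showed no called difference. Srebf2 on LFD was 51.9, 64.9 and 88.7 CPM with vehicle and 36.1, 63.6 and 99.9 CPM with PERC, and over the diets its log2 value was -0.00 (SE 0.09, edgeR adjusted p = 0.979). The vehicle range lay wholly within the PERC range on LFD. Srebf2 also contains the microRNA gene Mir33. On HFD its level was 39.4, 54.6 and 66.3 CPM with vehicle and 44.3, 49.4 and 79.4 with PERC, and on MCD 48.1, 60.3 and 71.3 CPM and 47.7, 55.8 and 78.2. Scap on LFD was 51.9, 72.6 and 85.1 CPM with vehicle and 39.3, 68.9 and 89.3 CPM with PERC (over the diets, log2 -0.02, SE 0.08, edgeR adjusted p = 0.882). Insig2, the isoform that is not a classical SREBP2 target, was 59, 65.6 and 71.8 CPM and 56.7, 66.1 and 82.8 CPM on LFD (over the diets, log2 -0.01, SE 0.04, edgeR adjusted p = 0.939). The precision differed between these genes, and the SE of Insig2 was the smallest of the 3.

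Of the transport genes Npc2 alone rose over the diets. Npc2, the lysosomal protein that hands cholesterol to NPC1, went from 104, 111 and 117 to 106, 121 and 132 CPM on LFD (over the diets, log2 0.08, SE 0.02, edgeR adjusted p = 0.00854). The groups overlapped over most of their range, and the call was lost with adipocyte or adrenal markers as a covariate (adjusted p = 0.0574 and 0.0689). Npc1 (log2 0.07, adjusted p = 0.0562), Stard4 (log2 0.16, adjusted p = 0.117) and Mylip, a ubiquitin ligase that removes lipoprotein receptors (log2 0.17), did not pass edgeR's test. The remaining late enzymes were near 0 over the diets: Tm7sf2, a sterol reductase, at 0.07, Nsdhl, a sterol dehydrogenase, at 0.03, Ebp, the sterol isomerase, at 0.07, and Dhcr7, the last reductase, at -0.04.

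Some markers of other cell types were called in these groups. Of 11 adipocyte markers 6 rose with PERC on LFD, 2 on HFD and 1 on MCD, where 6.91%, 9.18% and 5.1% of all genes were called. Their summed level on LFD was 163, 177 and 213 CPM with vehicle and 175, 273 and 493 with PERC, on HFD 164, 275 and 395 and 201, 338 and 849, and on MCD 177, 286 and 333 and 241, 293 and 365. With their level as a covariate, 5 members rose on LFD, 4 on HFD, 3 on MCD and 10 were called over the diets. On LFD, Lss (log2 0.36, adjusted p = 0.071), Pmvk (log2 0.32, adjusted p = 0.117) and Sqle (log2 0.36, adjusted p = 0.0682) were then no longer called by edgeR, while Insig1, Fdps, Fdft1, Msmo1 and Hsd17b7 were. Of 6 proximal tubule markers 1 rose and 3 fell over the diets, where 24.5% of all genes were called. Their sum on LFD was 9946, 11509 and 12688 CPM with vehicle and 8078, 9045 and 12369 with PERC. Of 6 macrophage markers 1 fell (16.7%, against 24.5% of all genes), and their sum on LFD had a lowest and median of 127.5 and 131.8 CPM with vehicle and of 74.1 and 96.3 with PERC. The part of proximal tubule and macrophage content in the members' results was not tested.

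Did diet change the response to 5 doses? No member passed the test of the difference in PERC effect between diets by edgeR or DESeq2. For HFD minus LFD 0.0137% of all genes were called (805 at an unadjusted p under 0.05), and for MCD minus LFD 0% (944). The members' median difference was -0.10 for HFD, with 7 of 27 above 0 (48.9% of all genes), and -0.09 for MCD, with 5 above 0 (50.5%). Insig1 had a difference of -0.57 (SE 0.24, edgeR adjusted p = 0.836) for HFD and -0.66 (SE 0.24, adjusted p = 0.584) for MCD. These contrasts share the LFD libraries, and the larger count of called members on LFD is not by itself a difference between diets.

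At 24 h after a single dose, no member passed in any diet by edgeR or DESeq2. Of all genes 0.749% were called on LFD (1338 at an unadjusted p under 0.05), 0.007% on HFD (577) and 0.028% on MCD (708). On HFD 24 of 27 log2 values were above 0 (51.8% of all genes) with a median of 0.22, on MCD 21 (47.1%) with a median of 0.20, and on LFD 8 (48.4%) with a median of -0.06. Averaged over the diets, Insig1 alone rose (log2 0.54, SE 0.13, 1.46-fold, edgeR adjusted p = 0.0412), against 1.37% of all genes called (0.938% higher, 0.427% lower), and 20 of 27 values were above 0 (47.9% of all genes). Fdft1 was next at 0.34 (SE 0.11, adjusted p = 0.181).

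The single values of Insig1 by library were as follows. On LFD they were 62.9, 61.9, 54.9, 92.1 and 56.3 CPM with vehicle and 56.6, 90.4, 61.6 and 116 CPM with PERC. On HFD they were 51.2, 68.7, 91.1 and 74.6 CPM with vehicle and 131.4, 80, 84, 144.3 and 110.9 CPM with PERC. On MCD they were 63.5, 65.7 and 65.4 CPM with vehicle and 117, 133, 88.9 and 80.7 CPM with PERC. All MCD PERC libraries were above all MCD vehicle libraries, 2 HFD PERC libraries fell within the vehicle range, and the LFD groups overlapped widely. Within the 3 lanes the difference over the diets was 0.38 to 0.70. The call was lost when any 1 of 17 of the 25 libraries was left out (adjusted p up to 0.0975), and with adrenal markers as a covariate (log2 0.51, adjusted p = 0.0594).

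Fdft1, squalene synthase, was apart by treatment on HFD and MCD. On HFD it was 29.5, 29.4, 34.4 and 30.4 CPM with vehicle and 43.4, 38.4, 41.3, 36.1 and 47.1 CPM with PERC. On MCD it was 29.3, 30.7 and 26.7 CPM with vehicle and 38.8, 37.6, 39 and 38.4 CPM with PERC. Neither pair of groups overlapped, and neither was called (log2 0.42 and 0.41, edgeR adjusted p = 1 and 0.999). Fdft1, Fdps and Mvk were apart on HFD, where 1.74% of all genes were, and Dhcr7, Fdft1, Insig1, Lss, Msmo1 and Sqle on MCD, where 5.92% were. On LFD no member was apart (2.02% of all genes).

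The 4 LFD PERC libraries of the single regimen split into a pair of low and a pair of high libraries for many members. Fdps was 17.5, 51.9, 14.4 and 39.6 CPM in replicates 1, 3, 4 and 5, and in the 5 vehicle libraries 29.9, 25.3, 31.4, 43.6 and 31.8 CPM. Msmo1 was 23.2, 83.1, 22.4 and 92.5 CPM with PERC, and 54.9, 48.9, 60.2, 94.9 and 58.1 CPM with vehicle. Idi1 was 64.1, 224, 51.9 and 264 CPM with PERC, and 192, 220, 240, 294 and 317 CPM with vehicle. Replicates 1 and 4 lay below every vehicle library for these genes, and replicates 3 and 5 lay within or above the vehicle range. The labels do not mark replicates 1 and 4 as different.

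**Figure D3:**
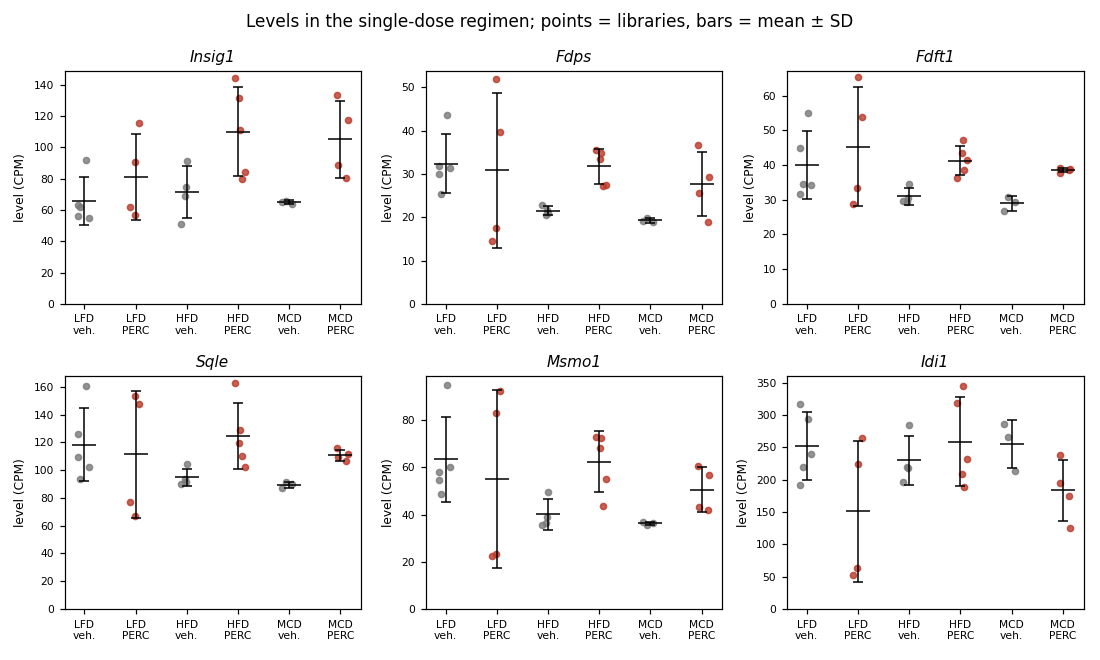
Level (CPM) of members in each single-regimen library, by diet and treatment. On LFD the PERC libraries fall into a low and a high pair for Msmo1, at 23.2 and 22.4 against 83.1 and 92.5 CPM, while on MCD all 4 PERC libraries lie above the 3 vehicle libraries for Fdft1.

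No member passed the test of the difference in single-dose effect between diets by edgeR or DESeq2. For HFD minus LFD 0% of all genes were called (791 at an unadjusted p under 0.05), with a member median of 0.26 and 25 of 27 above 0 (52.7% of all genes). For MCD minus LFD 0% were called (600), with a median of 0.26 and 22 above 0 (49.6%). Nor did any pass the difference between regimens by either tool. For repeated minus single on LFD 0.0132% of all genes were called (688), with 25 of 27 members above 0 and a median of 0.20. The largest of these LFD differences were Fdps at 0.98 (SE 0.29, edgeR adjusted p = 0.694) and Insig1 at 0.78 (SE 0.29, adjusted p = 0.859). On HFD 0.132% were called (1460), with 6 members above 0, and on MCD 0.0132% (1243), with 9. For these differences between regimens the share of all genes above 0 is not given, and the counts only describe the members. The single-dose LFD effect enters the LFD difference and both comparisons of diets. It rests on PERC libraries that split into a low and a high pair for many members. Many members also varied together over libraries, as described below, so such counts are not of independent genes. Regimen, time after the last dose and set of lanes cannot be told apart here.

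Among vehicle kidneys, Ebp and Insig1 were the members called with diet by edgeR. Ebp, the isomerase that moves a double bond in the sterol ring (chromosome X, 8185329 to 8193512, minus strand), rose on HFD in both regimens. In the repeated regimen it was 68.6, 73.3 and 77.5 CPM on LFD (mean 73 ± 3.54, SD, n = 7), 97, 107 and 114 CPM on HFD (107 ± 6.25, n = 8) and 95, 104 and 109 CPM on MCD (103 ± 4.22, n = 7). Both groups lay wholly above LFD and overlapped each other. Ebp rose 1.46-fold on HFD (log2 0.55, SE 0.09, edgeR adjusted p = 6.08e-05) and rose on MCD (log2 0.50, SE 0.09, adjusted p = 5.91e-04). In the single regimen it was 70, 65.2, 78, 75.1 and 78.1 CPM on LFD. The HFD libraries had 93.7, 105.1, 102.4 and 105.2 CPM and the MCD libraries 91.4, 97.5 and 83.9 CPM. Again no library of either diet reached down to the LFD range. There Ebp rose on HFD (log2 0.47, SE 0.08, edgeR adjusted p = 9.50e-04), and on MCD the log2 value was 0.31 (adjusted p = 0.136, and 0.044 by DESeq2). With the low-depth libraries kept, the HFD call was lost (log2 0.45, adjusted p = 0.0769). Within lanes Ebp was above LFD in 5 of 5 repeated lanes on HFD (0.44 to 0.66) and on MCD (0.38 to 0.56).

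Insig1 in vehicle kidney of the repeated regimen was higher on HFD (log2 0.60, SE 0.18, edgeR adjusted p = 0.03) and on MCD (log2 0.65, SE 0.18, adjusted p = 0.0323) than on LFD, at the levels given above. Both diets lay wholly above LFD. Both comparisons use the LFD vehicle libraries that also served the PERC comparison on LFD, so these results are not independent of each other. The same 2 comparisons in the single regimen did not call it, and there the within-lane differences ran from -0.28 to 0.32 on HFD and from -0.14 to 0.26 on MCD. The HFD call was lost without any 1 of LFD vehicle replicates 1, 4, 5, 6 and 7 or HFD vehicle replicates 1 and 6 (adjusted p up to 0.0836). The MCD call was lost without any 1 of those LFD libraries or MCD vehicle replicates 2 and 8 (adjusted p up to 0.107), and with no filter on low counts (adjusted p = 0.0512). Cyp51 was also wholly above LFD on both diets in the repeated regimen, with log2 values of 0.68 (SE 0.23, edgeR adjusted p = 0.0663) and 0.47 (SE 0.24, adjusted p = 0.393). Cyp51 on HFD was called with lane as a covariate (log2 0.76, adjusted p = 0.0177) and without the 2 PERC libraries chosen for leaving out (log2 0.67, adjusted p = 0.0115). Of all genes 3.2% were apart between HFD and LFD and 2.45% between MCD and LFD.

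In counts, 2 of 27 members rose on HFD in the repeated regimen (6.64% of all genes called, 3.86% higher and 2.78% lower) and 2 on MCD (3.48%, 2.11% higher and 1.37% lower). The HFD count depended on the fit: DESeq2 and the lane covariate called 4 members, adding Cyp51 and Acat2. A fit to only the groups compared called 8, and leaving out the 2 PERC libraries chosen above called 3. Without any 1 of LFD vehicle replicates 1, 4, 5 and 6 or HFD vehicle replicates 1 and 6 it was 1, and without LFD vehicle replicate 2 or HFD vehicle replicate 3 or 7 it was 3. In the single regimen 1 rose on HFD (1.64%, 0.875% higher and 0.763% lower) and 0 on MCD (0.476%, with 943 genes at an unadjusted p under 0.05 by edgeR and 1 member, Ebp, by DESeq2). Between MCD and HFD no member was called by edgeR or DESeq2 in the single regimen (0.007%, 474 genes unadjusted) or the repeated regimen (0%, 540). Adipocyte markers moved with diet too: 7 of 11 were higher on HFD and 5 on MCD than on LFD in the repeated regimen, and none in the single regimen. With their level as a covariate, Ebp on HFD was still called (log2 0.42, SE 0.10, edgeR adjusted p = 0.0146), while Ebp on MCD (log2 0.37, adjusted p = 0.0903), Insig1 on HFD (log2 0.38, adjusted p = 0.391) and Insig1 on MCD (log2 0.42, adjusted p = 0.574) were not.

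**Figure D4:**
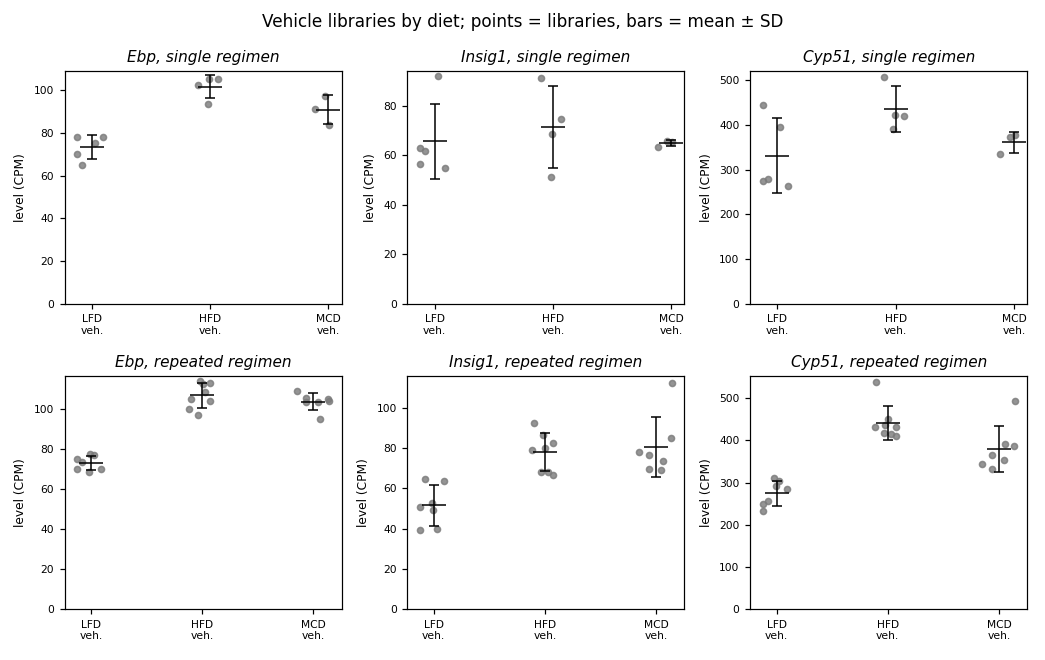
Level (CPM) of members in vehicle libraries by diet and regimen. Ebp on HFD and MCD lies above every LFD library in both regimens, and Insig1 does so in the repeated regimen, where LFD runs from 39.4 to 64.8 CPM.

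Several enzymes pointed the other way in the single-regimen vehicle libraries, without a call. Fdps on HFD was 22.9, 20.6, 21 and 21.6 CPM and on MCD 18.9, 19.9 and 19.1 CPM, all below the lowest LFD library at 25.3 CPM (log2 -0.59 and -0.75). Msmo1 had log2 values of -0.65 and -0.80 and Fdft1 of -0.37 and -0.47. Fdps and Pmvk lay wholly below LFD on HFD, where 5.69% of all genes were apart, and Dhcr7, Fdft1, Fdps, Msmo1, Pmvk and Sqle on MCD, where 4.47% were. The same HFD and MCD vehicle libraries served the single-dose PERC comparisons. There Fdps on HFD, and Dhcr7, Fdft1, Msmo1 and Sqle on MCD, lay wholly higher with PERC, so these results are not independent of each other. In the repeated regimen the Fdps groups overlapped, at 16.8 to 22 CPM on HFD, 15.2 to 25.8 on MCD and 16.3 to 24.6 on LFD.

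How the members varied from library to library within groups was read against Insig1. After group and lane means were removed from log2 CPM, 26 relations were computed over the 47 repeated-regimen libraries. By r, 15 passed a permutation test adjusted over the 26 relations, all positive. Here and below, residuals were shuffled as if all were free although group and lane means had been removed, so the p-values tend to be too small. By rho, Mvk (adjusted permutation p = 0.346), Tm7sf2 (0.627) and Dhcr7 (0.134) did not pass, while Hmgcs1 did (0.0145). Fdps had Pearson r = 0.71 and Spearman rho = 0.68, Lss 0.70 and 0.66, Msmo1 0.66 and 0.66, Fdft1 0.65 and 0.62, and Sqle 0.63 and 0.63. Each of these 5 had a two-sided permutation p for r of 1.00e-05, the smallest that 100000 permutations can give, and an adjusted p of 5.20e-05. Stard4 had r = 0.53 and rho = 0.54 (permutation p = 1.60e-04, adjusted 5.20e-04). Pmvk, which rose on every diet, did not pass over these 47 libraries (r = 0.26, rho = 0.17, permutation p for r = 0.0826, adjusted 0.119). Over the 25 PERC libraries alone Pmvk passed by r (0.47, permutation p = 0.0175, adjusted 0.0332) but not by rho (0.31, adjusted permutation p = 0.219). Srebf2 did not pass over the 47 (r = 0.16, rho = 0.05, permutation p = 0.288).

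Without the 2 libraries farthest from the Insig1 median, HFD PERC replicate 6 and LFD PERC replicate 3, 10 relations passed. Fdps then had r = 0.69, Fdft1 0.76, Sqle 0.65, Lss 0.68 and Msmo1 0.69. The 5 relations no longer past the test were those of Cyp51, from 0.43 to 0.22, Idi1, from 0.39 to 0.27, Dhcr7, from 0.39 to 0.26, Mvk, from 0.35 to 0.07, and Tm7sf2, from 0.33 to -0.00, and in the repeated regimen these calls rest on those libraries. Over the 22 vehicle libraries alone 10 relations passed, and over the 25 PERC libraries 14. In the 25 single-regimen libraries r was 0.77 for Fdps, 0.76 for Sqle, 0.71 for Lss, 0.83 for Msmo1 and 0.63 for Fdft1. Idi1 passed there too (r = 0.64, adjusted permutation p = 4.16e-04, and 0.60 and 0.00517 without the 2 libraries farthest from the median), as did Cyp51 (r = 0.54, adjusted permutation p = 0.0123), though not without those 2 (r = 0.41, adjusted 0.109). There 15 relations passed, 14 positive and 1, Scap at -0.60, negative, and 11 without MCD PERC replicate 5 and LFD PERC replicate 4.

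**Figure D5:**
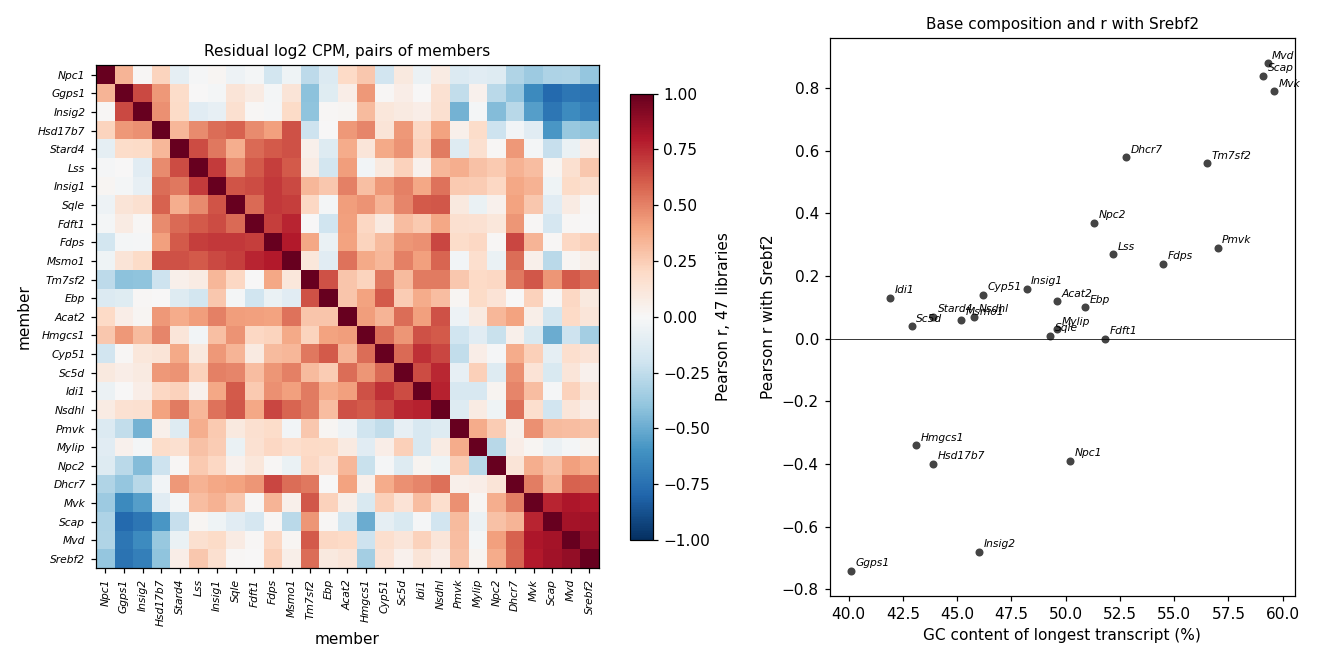
Pearson r between members over the 47 repeated-regimen libraries, from log2 CPM with group and lane means removed. Fdps and Msmo1 (r = 0.79) share a block with Sqle and Fdft1, Idi1 pairs with Nsdhl (0.77) and Cyp51 (0.73), and Srebf2 pairs with Mvd (0.88) and Scap (0.84) but runs against Ggps1 (-0.74).

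The members thus fell into more than 1 pattern, given here as a description over libraries that share lanes and depth. Fdps went with Msmo1 (r = 0.79) and Sqle (0.71). Idi1 went with Nsdhl (0.77), Cyp51 (0.73), Sc5d (0.65) and Hmgcs1 (0.64). Srebf2 went with Mvd (0.88), Scap (0.84) and Mvk (0.79), and against Ggps1 (-0.74) and Insig2 (-0.68). Across the other 26 members, r with Srebf2 was higher with higher GC content of the longest transcript (r = 0.78 across genes, which are not independent replicates). GC was 57.9% in Srebf2, 59.3% in Mvd, 59.1% in Scap and 59.6% in Mvk, and 40.1% in Ggps1 and 46% in Insig2. The part of GC content in that pattern was not tested.

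The other genes around the pathway, from lists chosen by textbook role, were tested in the same fit, in which 24.5% of all genes were called over the diets after 5 doses. Of 13 genes of SREBP processing and sterol sensing in the endoplasmic reticulum, 3 rose and 6 fell (69.2% called, median -0.08). Rnf145, a sterol-responsive ubiquitin ligase, went on HFD from 116.8, 125.2 and 142.1 CPM with vehicle to 86, 94.7 and 102 with PERC, with no overlap. Over the diets it fell (log2 -0.37, SE 0.03, edgeR adjusted p = 2.09e-11) and so did Erlin2 (log2 -0.26, SE 0.03, adjusted p = 5.51e-08). Tmem97 rose (log2 0.30, SE 0.05, edgeR adjusted p = 4.20e-05). Over the diets after a single dose Tmem97 also rose (log2 0.31, edgeR adjusted p = 0.00586).

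Of 16 tested genes of cholesterol efflux and storage under the oxysterol receptor LXR, 3 rose and 1 fell over the diets (median -0.01), and these 25% called are near the share of all genes. Lpcat3, which puts polyunsaturated chains into phospholipids, went on LFD from 165, 170 and 178 CPM with vehicle to 183, 263 and 318 with PERC, with no overlap. It rose over the diets (log2 0.63, SE 0.05, edgeR adjusted p = 1.24e-14), as did Soat1, which esterifies cholesterol (log2 0.22, SE 0.04, adjusted p = 5.28e-05), and Abca1, the cholesterol exporter (log2 0.37, SE 0.09, adjusted p = 0.00131). Lipa, the lysosomal lipase that frees cholesterol from its esters, fell (log2 -0.33, SE 0.06, edgeR adjusted p = 1.82e-05).

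Of 17 genes of fatty acid synthesis and SREBP1, 4 rose and 4 fell over the diets (47.1% called, median 0.11). Fads1, a desaturase, rose (log2 0.58, SE 0.08, edgeR adjusted p = 8.88e-08) and Acss2, which makes acetyl-CoA from acetate, fell (log2 -0.42, SE 0.07, adjusted p = 2.43e-06). Of 14 genes of the other isoprenoid branches 2 rose and 1 fell (21.4% called, median -0.02), and the one that fell was Pdss1, which makes the tail of coenzyme Q (log2 -0.41, SE 0.06, edgeR adjusted p = 1.02e-06). Of 5 electron donors of sterol enzymes (40% called) 1 rose, Cyb5r1 (log2 0.45, SE 0.06, edgeR adjusted p = 5.44e-07), and 1 fell, Cyb5a (log2 -0.28, SE 0.05, adjusted p = 1.80e-05). Of 8 oxysterol and bile acid enzymes 2 rose (25%, near the share of all genes), among them Cyp27b1, the renal enzyme that activates vitamin D (log2 1.03, SE 0.21, edgeR adjusted p = 1.68e-04).

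Clock genes, listed because cholesterol synthesis follows the time of day, moved with the same groups. Of 15, 4 rose and 6 fell over the diets in the repeated regimen (66.7% called, median -0.08). Npas2, a clock activator, rose (log2 1.16, SE 0.14, edgeR adjusted p = 1.16e-08), as did the repressor Cry1 (log2 0.99, SE 0.14, adjusted p = 8.93e-07), and Hlf, a clock output factor, fell (log2 -0.38, SE 0.05, adjusted p = 2.96e-08). By diet, 1 was called on LFD, 8 on HFD (3 higher, 5 lower) and 5 on MCD (3 higher, 2 lower). Of all genes 6.91%, 9.18% and 5.1% were called there, and the LFD count is near its share. Between single-regimen vehicle groups, 5 clock genes were higher and 2 lower on HFD than on LFD, where 1.64% of all genes were called. The part of the time of day in the members' results was not tested.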

How the data were processed

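Each library has 1 file of deposited counts, whole numbers of reads per gene symbol that the authors did not normalize. The submitters' processing notes name TopHat2 2.0.13, HTSeq, DESeq2, Trimmomatic and bcl2fastq 2.17.1.14, and the build GRCm38 (mm10), without saying what each did. Annotation and strand setting are not given in the sources used here, which leaves genes that overlap others, on the same or the other strand, uncertain. Per the labels' protocols, libraries were made from pulverized kidney with a stranded kit for messenger RNA. In genes lay 53.2% of the deposited read counts (median of 72 libraries, 45.4% to 62.3%), with 22.9% in no feature and 21.7% aligned at several places. Rows that name no gene stayed out of library sizes.

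The labels list 78 samples, 77 of them with a file. The remaining 1, an MCD repeated vehicle library whose strain label differs from the others, was not analysed here. A minimum of 1000000 counts per library removed 5 from the single regimen, which held 2267 to 22029 counts (on LFD 1 PERC, on HFD 1 vehicle, on MCD 1 PERC and 2 vehicle). Lanes were read from file names. No pair among 203 within groups was identical (lowest chi-square per gene 6.38).

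Testing used edgeR 4.0.16 in R 4.3.3, with its quasi-likelihood F test, TMM factors, filterByExpr, robust dispersion and 1 mean per group. A regimen was fitted over its 6 groups (14280 genes for single, 14614 for repeated doses) and regimens were compared over all 12 (15139 genes), in 21 comparisons with Benjamini-Hochberg adjustment over all genes. An SE is |log2 fold change| over the root of F. Log2 CPM used a prior count of 2. The scripts were tested on simulated data. Alternatives were RLE scaling, DESeq2 1.42.0, no filter, lane, adipocyte or adrenal markers as a covariate, only the groups compared, low-depth libraries kept, and each library left out. Every member is accounted for, and from each other list the called genes with the smallest p are named, except 1 gene that is counted in its list and not reported here by name. Members and lists were chosen with earlier results of these data known. Gene positions come from GENCODE M21 and promoter windows from RefSeq, both on GRCm38.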

Additional observations from a re-analysis of the deposited data

Results flagged for a closer look

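In 21 of 297 member and group sets of 4 to 10 libraries, the highest or lowest library stood farther from the rest than Dixon's 95% critical value allows, where chance gives about 1 in 20. Values are CPM, with the nearest other library of the group in parentheses where it is given.

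After 5 doses of PERC on HFD, replicate 6 was lowest for Cyp51 at 66.9 (nearest 283), for Insig1 at 59.9 (108) and for Tm7sf2 at 6.59 (10.7). On MCD, PERC replicate 5 was highest for Fdft1 at 54.8 (41) and for Insig1 at 183. Among repeated vehicle libraries on MCD, replicate 8 was highest for Cyp51 at 493 (392), Insig1 at 112 (85.1) and Mylip at 85.8 (63.8), replicate 6 was highest for Pmvk at 15 (12.9), and replicate 5 was lowest for Ebp at 95 (103). On HFD, vehicle replicate 1 was highest for Cyp51 at 538 (452) and Npc1 at 42.7 (37.3), and on LFD vehicle replicate 7 was lowest for Pmvk at 11.7 (13).

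In the single regimen on LFD, PERC replicate 1 was lowest for Acat2 at 53.3 (70.7), PERC replicate 3 was highest for Mvd at 54.9 (30.8) and Srebf2 at 119 (67.4), and PERC replicate 5 was highest for Insig2 at 72 (61.9). Vehicle replicate 4 on LFD was highest for Msmo1 at 94.9 (60.2) and Insig1 at 92.1 (62.9). PERC replicate 4 on MCD was lowest for Sc5d at 52.9 (57.8), and PERC replicate 5 on HFD was highest for Mylip at 71.8 (47.3). HFD PERC replicate 6 and the library labelled LFD PERC replicate 4, both of the repeated regimen, were left out together in the values given above.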

How the results depend on the processing

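None of the 32 called member and comparison pairs reversed its direction under any alternative run, and fold changes that were not called were not checked for direction. No paired analysis was possible because the labels give no replicate numbers and the numbers used here follow accession order. Of the counts of called members under the other settings, 156 stayed within 1.5 times the count reported and 12 did not. With each library left out in turn, 349 stayed and 32 did not. Counts of 0 that remained 0 are among those that stayed, because most comparisons called no member. These numbers are therefore not a measure of how stable the called members were. On LFD after 5 doses the adipocyte covariate gave 5. On HFD after 5 doses the adrenal covariate gave 3, and over the diets after a single dose it gave 0. For HFD against LFD vehicle in the single regimen, lane as a covariate gave 2 (1 higher, and 1 lower, Pmvk, log2 -0.40) and keeping the low-depth libraries gave 0. For MCD against LFD vehicle in the single regimen DESeq2 gave 1. For HFD against LFD vehicle in the repeated regimen DESeq2 and the lane covariate gave 4, the adipocyte covariate 1 and a fit to only the groups compared 8. For MCD against LFD vehicle in the repeated regimen, no filter gave 1 and the adipocyte covariate 0. The cause of these shifts was not tested.

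Leaving out each library in turn gave 8 to 10 called members on LFD after 5 doses, 4 to 6 on HFD, 2 to 5 on MCD (2 without PERC replicate 5, 5 without PERC replicate 8), 10 to 13 over the diets, and 0 to 1 over the diets after a single dose. It gave 1 to 3 for HFD and 1 to 2 for MCD against LFD vehicle in the repeated regimen, 1 to 1 for HFD in the single regimen, and 0 to 0 in every other comparison. At 8556278 to 42022166 counts, Npc1l1 was too low to test.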
